A study of Homo sapiens with 6 samples.

Results

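Mono-mac-6 cells in which the RNA helicase DDX6 was targeted with one CRISPR guide, sgDDX6.2, were compared with cells of the same clone in which it was targeted with another, sgDDX6.1. The comparison took 4 of the 6 libraries of the study, 2 for each guide, as their labels assign them, and the 10962 of 18806 gene symbols (58.3%) that reached 1 TPM in at least 2 of these 4 libraries. The question was how far the expression profiles differ between guides directed at the same gene, and which genes part them.

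DDX6 is a DEAD-box helicase of processing bodies, the cytoplasmic granules in which untranslated mRNA collects with decapping factors. It links the deadenylase complex CCR4-NOT and microRNA silencing to translational repression and to removal of the mRNA cap. In myeloid leukemia DDX6 and processing bodies have been studied as factors that leukemic growth depends on.

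Mono-mac-6 is a human acute myeloid leukemia (AML) line of monocytic type in which MLL-AF9 is present as a fusion gene, and every group was made from a single Cas9-expressing clone. The control group sgNS received a control guide, and the other 2 groups received a guide against DDX6 (sgDDX6.1 or sgDDX6.2), all by lentivirus, followed by selection with blasticidin and hygromycin B. The labels place the harvest on day 8 after infection, while the design text gives a selection of up to 2 weeks, so the day is uncertain. Each group had 2 libraries of poly(A)+ RNA, and nothing in the labels says that these came from separate cultures, so a p-value measures only the spread between these libraries. A guide and the culture that carried it cannot be told apart, and the guides' sequences and target sites are not used here.

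The deposited values were TPM, transcript abundances scaled so that a library sums to 1000000, and they carry no read depth. A library held between 10794 and 11007 genes at 1 TPM or more. Ribosomal protein genes made up 18.2% to 19.2% of the sgDDX6 libraries and 23.7% to 23.8% of the sgNS libraries. Of 13 markers of the monocytic leukemia line, LYZ (lysozyme) was at 9531 to 14945 TPM and CD33 at 47.8 to 61.98 TPM, whereas CD14, the classical monocyte marker, stayed between 0.37 and 1.36 TPM. The T cell genes CD3D, CD3E, CD3G and CD2 and the B cell gene MS4A1 were listed at 0 in every library. Of 10 T and NK cell markers 8 stayed under 1 TPM in all libraries, and NKG7, which codes for a granule membrane protein, was the abundant exception (103 and 110.5 TPM with sgNS, 129 and 136 TPM with sgDDX6.1 and 184 and 187 TPM with sgDDX6.2). CD8A, a coreceptor of T cells, passed the filter only through the sgDDX6.2 libraries and was called higher there (3.54 and 3.39 TPM with sgNS, 0.99 and 0.92 TPM with sgDDX6.1 and 3.12 and 3.31 TPM with sgDDX6.2, 1.11 ± 0.10 on the log2 scale between the guides). The summed level of that list was 107 and 114 TPM with sgNS, 129.6 and 137 TPM with sgDDX6.1 and 187 and 191 TPM with sgDDX6.2. The B cell gene CD79B was at 1.00 and 0.72 TPM, 0.71 and 1.28 TPM and 3.23 and 3.07 TPM in the same order (1.07 ± 0.14, called), and 6 of the 7 B cell markers were below the filter. KRT18, a keratin, was at 19.6 and 19.8 TPM, 10.8 and 11.3 TPM and 16.4 and 18.8 TPM (0.62 ± 0.08, called), and 9 of the 10 epithelial and fibroblast markers were below the filter. The part of other cell types in the results was not tested.

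DDX6 itself did not tell the guides apart. Its gene lies at chr11:118747766-118791149 (GRCh38) on the minus strand. DDX6 was at 102 and 99.5 TPM with sgNS, at 54.4 and 51.97 TPM with sgDDX6.1 and at 52.3 and 53.5 TPM with sgDDX6.2. The DDX6 libraries of both guides overlapped and all 4 lay below both sgNS libraries. The log2 difference between the guides was -0.01 ± 0.05 (SE, 2 libraries a guide; limma, adjusted p = 0.918), and against sgNS it was -0.91 with sgDDX6.1 and -0.92 with sgDDX6.2. The value is summed over the gene's transcripts and says nothing about the protein. Of 25 other genes tested within 1 Mb of DDX6, 3 were higher and 6 lower with sgDDX6.2 (36%, close to the share over all genes given next), with a median log2 difference of -0.06.

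Over all genes, differences between the guides were frequent and mostly small. At an adjusted p under 0.05 (limma on log2(TPM + 1), Benjamini-Hochberg over all genes), 3957 of 10962 genes differed, a share of 36.1%. With sgDDX6.2, 1882 genes were higher (17.2%) and 2075 were lower (18.9%). Of the genes called, 3607 differed by less than 1.5-fold, and the median size of a called difference was 0.27 on the log2 scale. Only 62 genes (0.566%) were called with a difference of at least 2-fold on the log2(TPM + 1) scale, all of them higher with sgDDX6.2. The most negative called difference on this scale was -0.99, for FOXD1. That scale understates changes of low genes. In mean TPM, FOXD1 and ENC1 with sgDDX6.2 were each at 0.45 of their sgDDX6.1 level, past 2-fold. The absence of lower genes at 2-fold thus holds on the log2(TPM + 1) scale only. The count at 2-fold depended on the scale: it was 163 with a pseudocount of 0.1, 11 with a pseudocount of 5 and 40 with a TPM filter of 5. Against sgNS, which both comparisons share, 61.3% of genes were called with sgDDX6.1 and 64.0% with sgDDX6.2. The median replicate gap was 0.08 (log2) in sgDDX6.1 and 0.05 in sgDDX6.2, beside a median guide difference of 0.13 in size. List counts given below without a single library belong beside totals that moved as well. The total of genes called depended on single libraries. It was 2595 without sgDDX6.1 replicate 1, 2247 without sgDDX6.2 replicate 1 and 2281 without sgDDX6.2 replicate 2, where the lone library of a guide is assumed to vary like the other groups.

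The libraries also differed along transcript GC content and transcript length. Spearman's rho between GC content and a library's deviation from the mean of all libraries was -0.10 and 0.19 in the sgDDX6.1 libraries, 0.20 and 0.36 in the sgDDX6.2 libraries and -0.35 and -0.12 in the sgNS libraries. With transcript length, rho was 0.13 and -0.12 in the sgDDX6.1 libraries, -0.13 and -0.14 in the sgDDX6.2 libraries and 0.13 and 0.07 in the sgNS libraries. Across 10912 genes, which are not independent replicates, the guide difference had a rho of 0.19 with GC content and -0.12 with transcript length. Its rho with mean level was -0.15 across the 10962 genes tested. With the GC trend removed from each library 4812 genes were called, 2385 higher and 2427 lower.

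**Figure D1:**
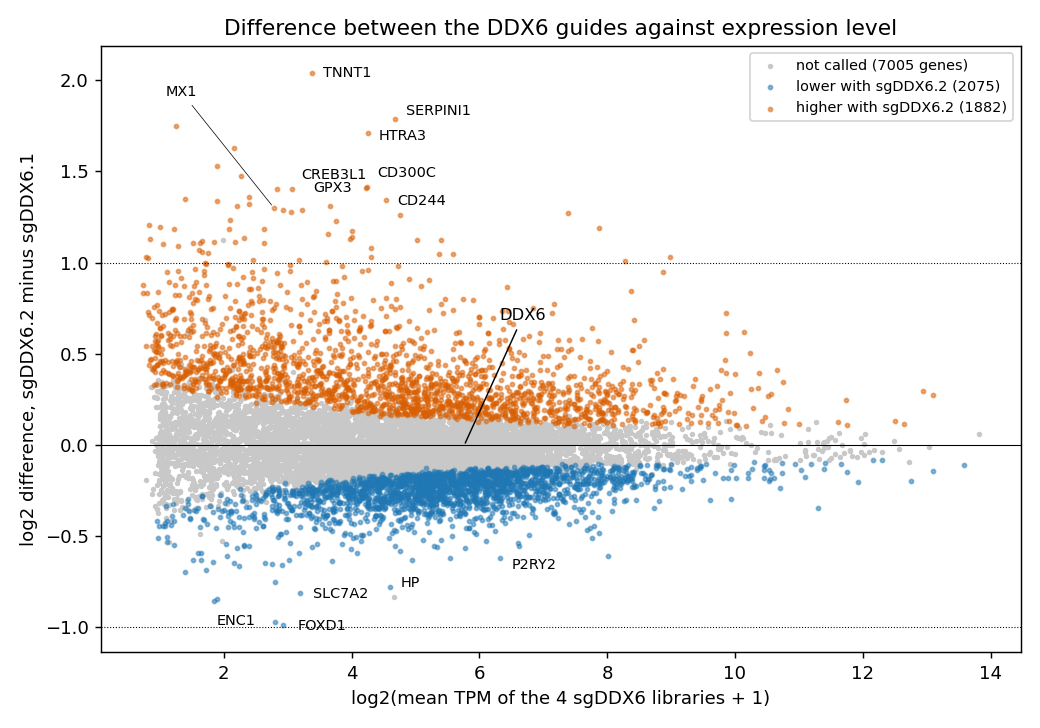
Each point is 1 of 10962 genes, with the log2 of the mean TPM of the 4 sgDDX6 libraries plus 1 on the x axis and the log2 difference, sgDDX6.2 minus sgDDX6.1, on the y axis; coloured points have an adjusted p under 0.05 and dotted lines mark 2-fold. DDX6 lies at -0.01, and TNNT1 has the largest difference of the labelled genes. On this scale, which understates changes of low genes, called genes past 2-fold lie only on the upper side.

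Among genes with a mean of at least 5 TPM, an adjusted p under 0.05 and no overlap between the guides, the 12 most raised with sgDDX6.2 differed by 1.29 to 2.04 on the log2 scale. Genes with a mean under 5 TPM, such as CCL24 and ABCA1, reached differences within that range. TNNT1, troponin T of slow skeletal muscle, was at 2.93 and 3.21 TPM with sgDDX6.1 and at 16.1 and 15.3 TPM with sgDDX6.2, and the sgNS libraries were at 3.33 and 3.16 TPM. The sgDDX6.1 and sgNS libraries overlapped, and both sgDDX6.2 libraries stood far above them (2.04 ± 0.08 on the log2 scale, limma adjusted p = 5.6e-08). SERPINI1, the protease inhibitor neuroserpin, was at 10.8 and 10.3 TPM with sgDDX6.1 and 40.02 and 37.8 TPM with sgDDX6.2, with 13.2 and 12.98 TPM in sgNS between them. That gene fell with the first guide and rose with the other, both called against sgNS (-0.29 and 1.5), and the guides differed by 1.79 ± 0.06 (limma adjusted p = 1.3e-08). HTRA3, a secreted serine protease, was at 8.23 and 7.70 TPM and at 27.6 and 29.04 TPM in the same order, against 6.42 and 7.16 TPM with sgNS. Its guide difference was 1.71 ± 0.08, again with no overlap.

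Several of these genes rose with both guides and further with sgDDX6.2. GPX3, the secreted glutathione peroxidase, was at 4.74 and 6.22 TPM with sgNS, 9.16 and 9.55 TPM with sgDDX6.1 and 26.6 and 26.5 TPM with sgDDX6.2. CD300C, an immunoglobulin-like receptor of myeloid cells, was at 5.42 and 5.25 TPM, 9.62 and 8.86 TPM and 26.5 and 25.9 TPM in that order, and CD244, a receptor of the SLAM family, at 6.13 and 7.65 TPM, 11.8 and 12.5 TPM and 32.1 and 32.6 TPM. In all 3 the groups stood apart without overlap, with guide differences of 1.41 ± 0.10, 1.41 ± 0.07 and 1.34 ± 0.09. PTGS1, a cyclooxygenase of prostaglandin synthesis, followed the same order (1.69 and 1.49 TPM, 3.46 and 3.37 TPM and 9.91 and 9.67 TPM). GGT1, which cleaves extracellular glutathione, was at 4.77 and 4.88 TPM, 5.78 and 6.73 TPM and 16.3 and 17.7 TPM. Near-identical copies of GGT1 exist in the genome, so its share of reads is uncertain.

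ART3, of the ADP-ribosyltransferase family, and ID1, an inhibitor of basic helix-loop-helix transcription factors, were not called with sgDDX6.1 against sgNS. ART3 was at 2.94 and 2.92 TPM with sgDDX6.1 and 9.81 and 8.97 TPM with sgDDX6.2, beside 3.36 and 2.58 TPM with sgNS, and ID1 at 4.81 and 3.99 TPM and 10.9 and 13.6 TPM, beside 4.31 and 4.18 TPM. In both genes sgDDX6.1 overlapped with sgNS, and sgDDX6.2 stood alone above them. CREB3L1, a transcription factor anchored in the endoplasmic reticulum, was the mirror case. It was at 11.8 and 11.1 TPM with sgNS, 3.48 and 3.75 TPM with sgDDX6.1 and 11.1 and 11.3 TPM with sgDDX6.2, so that the sgDDX6.1 libraries stood alone below the others. The guide difference of CREB3L1 was 1.40 ± 0.08 (limma adjusted p = 4.7e-07), with -1.43 for sgDDX6.1 and -0.03 for sgDDX6.2 against sgNS. MX1, the interferon-induced antiviral GTPase, fell with both guides, from 45.3 and 45.9 TPM to 2.69 and 3.28 TPM with sgDDX6.1 and 8.59 and 8.99 TPM with sgDDX6.2.

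Genes lower with sgDDX6.2 differed by less. FOXD1, a forkhead transcription factor, was at 9.27 and 8.98 TPM with sgDDX6.1, 4.38 and 3.86 TPM with sgDDX6.2 and 6.50 and 7.07 TPM with sgNS. It was higher than sgNS with sgDDX6.1 and lower with sgDDX6.2, and the guides differed by -0.99 ± 0.09 (limma adjusted p = 1.2e-05). ENC1, an actin-binding protein with kelch repeats, was at 8.53 and 7.88 TPM with sgDDX6.1 and 3.79 and 3.61 TPM with sgDDX6.2, both above sgNS at 2.31 and 2.61 TPM. HP, haptoglobin, which binds free hemoglobin, was at 5.6 and 6.08 TPM with sgNS, 27.8 and 31.4 TPM with sgDDX6.1 and 15.9 and 17.9 TPM with sgDDX6.2. In ENC1 and HP the sgDDX6.2 libraries lay between the other groups (-0.97 ± 0.09 and -0.78 ± 0.08 between the guides).

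The same intermediate position was held by CCR2, the chemokine receptor of classical monocytes, and by P2RY2, a receptor for extracellular nucleotides. CCR2 was at 7.69 and 6.96 TPM with sgNS, 37.3 and 35.4 TPM with sgDDX6.1 and 23.1 and 23.1 TPM with sgDDX6.2. P2RY2 was at 29.2 and 30.9 TPM, 97.5 and 95.4 TPM and 60.8 and 64.00 TPM in that order. Their rise over sgNS was thus smaller with sgDDX6.2, with guide differences of -0.63 ± 0.07 and -0.62 ± 0.05. SLC1A3, a glutamate transporter, was at 55.7 and 54.6 TPM with sgDDX6.1, 34.2 and 36.9 TPM with sgDDX6.2 and 31.8 and 29.8 TPM with sgNS. PPP1R16B, a regulatory subunit of a protein phosphatase, VIT, the matrix protein vitrin, and OSR2, a zinc finger transcription factor, were each called higher with sgDDX6.1 against sgNS and not called with sgDDX6.2. PPP1R16B was at 8.11 and 7.45 TPM and 4.12 and 4.29 TPM, VIT at 9.04 and 7.34 TPM and 4.73 and 4.87 TPM and OSR2 at 7.24 and 7.30 TPM and 4.25 and 4.26 TPM with the guides in that order.

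In the remaining 3 genes the fall against sgNS went further with sgDDX6.2. SLC7A2, a transporter of cationic amino acids, was at 25.8 and 23.1 TPM with sgNS, 10.9 and 10.5 TPM with sgDDX6.1 and 5.83 and 5.50 TPM with sgDDX6.2. IGFBP2, which binds insulin-like growth factors, was at 26.4 and 24.7 TPM, 8.70 and 9.08 TPM and 5.94 and 4.87 TPM. DZIP1, a zinc finger protein of cilia, was at 21.6 and 22.2 TPM, 15.01 and 14.6 TPM and 8.90 and 9.44 TPM, and all 3 groups stood apart. The chemokine CCL24 was listed at 0 in both sgDDX6.1 libraries and was at 1.05 and 4.52 TPM with sgDDX6.2, beside 0.69 and 0.00 TPM with sgNS. CCL24 was the only gene that was at 1 TPM or more in both libraries of a guide and under 0.1 TPM in both of the other, and its call was lost without sgDDX6.1 replicate 1, with robust estimation and with no filter on low values. Without either sgDDX6.2 library CCL24 fell below the filter and was not tested.

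**Figure D2:**
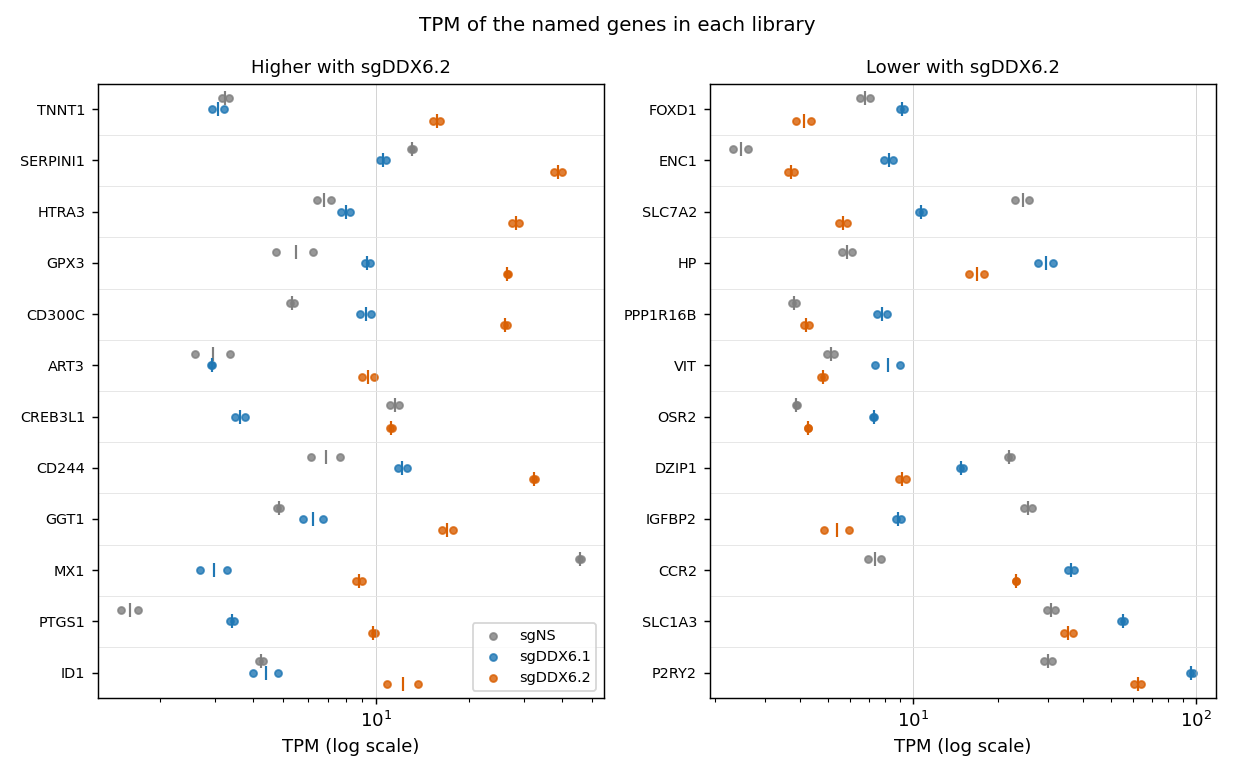
TPM on a log scale (x axis) of the 12 genes most raised and the 12 most lowered with sgDDX6.2 relative to sgDDX6.1, chosen for an adjusted p under 0.05, a mean of at least 5 TPM and no overlap between the guides; dots are single libraries and vertical ticks are group means, in grey for sgNS, blue for sgDDX6.1 and orange for sgDDX6.2. The separation of the DDX6 guides is part of how the 24 genes were chosen, and the sgNS libraries lie above, below or between them depending on the gene, as for MX1, CD244 and SERPINI1.

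Genes that build ribosomes were lower with sgDDX6.2 almost without exception. Ribosome biogenesis takes place mainly in the nucleolus, where ribosomal RNA is transcribed, processed and packed with ribosomal proteins. Of 68 tested genes of this list, 65 were called lower and 0 higher, with a median log2 difference of -0.29, where the median over all genes tested was -0.03 and 18.9% were called lower. The median was 0.32 with sgDDX6.1 and 0.02 with sgDDX6.2 against sgNS. MYBBP1A, a nucleolar regulator of ribosomal RNA transcription, was at 27.5 and 28.4 TPM with sgNS, 48.5 and 45.7 TPM with sgDDX6.1 and 31.3 and 31.9 TPM with sgDDX6.2. DDX21, a nucleolar RNA helicase, was at 212 and 201 TPM, 281 and 263 TPM and 196 and 193 TPM, so that the sgDDX6.1 libraries stood alone on the high side. NOLC1, a nucleolar phosphoprotein, followed that pattern (171 and 169 TPM, 226 and 213 TPM and 171 and 174 TPM), and BRIX1, an assembly factor of the large subunit, was at 145 and 138 TPM, 165 and 159.7 TPM and 126 and 123 TPM. Between the guides these 4 genes differed by -0.56 ± 0.06, -0.48 ± 0.04, -0.35 ± 0.04 and -0.38 ± 0.04. When single libraries of the DDX6 guides were left out 54 to 59 members were lower, and 66 were lower with the GC trend removed.

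Ribosomal proteins themselves were called less evenly. Of 77 cytosolic ribosomal protein genes 2 were higher and 15 lower with sgDDX6.2 (median -0.05), a share of lower calls near the 18.9% over all genes, and the count was 6 higher and 3 lower without sgDDX6.1 replicate 2, and the count lower was 7 without sgDDX6.2 replicate 1 and 5 without sgDDX6.2 replicate 2. Of 74 mitochondrial ribosomal protein genes 27 were lower and 0 higher (median -0.12). MRPL12, a protein of the large mitochondrial subunit, was at 294 and 308 TPM with sgNS, 448 and 474 TPM with sgDDX6.1 and 394 and 394 TPM with sgDDX6.2. The cytosolic counts also moved with the scaling, to 2 higher and 7 lower with the GC trend removed, 0 and 3 with median centring, 6 and 18 with quantile normalization and 0 and 2 with no variance trend. The mitochondrial count was 12 without sgDDX6.2 replicate 1 and 13 without sgDDX6.2 replicate 2.

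Most mitotic genes were lower with sgDDX6.2 than with sgDDX6.1. Of 43 genes of G2 and M phase, 35 were called lower and 0 higher, with a median log2 difference of -0.22, beside 18.9% called lower and a median of -0.03 over all genes, and 42 of the 43 values were negative. Against sgNS the median was 0.29 with sgDDX6.1 and 0.05 with sgDDX6.2. CDC20, the activator of the anaphase-promoting complex, was at 133 and 136 TPM with sgNS, 214 and 209 TPM with sgDDX6.1 and 165 and 166 TPM with sgDDX6.2. MKI67, the proliferation marker that coats mitotic chromosomes, was at 105 and 107 TPM, 165 and 154 TPM and 123 and 123 TPM. In both genes sgDDX6.2 lay between the other groups. NCAPG, a condensin subunit, and KIF2C, a kinesin that takes microtubules apart, were instead lowest with sgDDX6.2, NCAPG at 80.6 and 80.99 TPM, 85.04 and 80.7 TPM and 65.9 and 64.2 TPM and KIF2C at 97.1 and 99.1 TPM, 87.9 and 87.5 TPM and 70.96 and 70.9 TPM. The count was 26 to 36 when single libraries of the DDX6 guides were left out.

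Promoters of the mitotic genes commonly carry CCAAT boxes, the sites of the factor NF-Y. RefSeq promoters (250 bases before the transcript start and 50 after, GRCh38.p14) were found for 37 of the 43 genes, and 31 of them (83.8%) held CCAAT on either strand, beside 43.7% of the promoters of 9045 genes tested. Among the 31 genes 25 were called lower (80.6%, median -0.22), and among the 6 mitotic genes without CCAAT 5 were (83.3%, median -0.29). Over all genes, those with CCAAT were called lower in 19.7% of cases and those without in 18.7%. The promoters of the leading genes with the motif, CDC20 (chr1:43358731-43359030, plus strand) and MKI67 (chr10:128126374-128126673, minus strand), are printed in lower case with each CCAAT box or its reverse complement in capitals.

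CDC20: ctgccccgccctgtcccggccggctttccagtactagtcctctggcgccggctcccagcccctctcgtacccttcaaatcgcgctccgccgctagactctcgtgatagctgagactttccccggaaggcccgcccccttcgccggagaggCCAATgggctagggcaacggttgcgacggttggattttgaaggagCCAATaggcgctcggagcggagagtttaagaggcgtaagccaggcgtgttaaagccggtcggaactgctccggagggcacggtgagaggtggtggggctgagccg

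MKI67: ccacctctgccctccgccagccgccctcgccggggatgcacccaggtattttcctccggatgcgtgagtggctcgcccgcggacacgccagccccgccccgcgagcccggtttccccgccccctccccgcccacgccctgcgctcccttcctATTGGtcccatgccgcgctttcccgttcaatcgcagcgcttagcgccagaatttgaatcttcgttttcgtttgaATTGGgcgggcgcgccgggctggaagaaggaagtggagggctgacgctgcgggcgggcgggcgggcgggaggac

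S phase genes were called lower more often than higher. Of 50 tested, 23 were called lower and 2 higher, with a median log2 difference of -0.13, beside 18.9% lower and 17.2% higher over all genes, and the count lower was 13 without sgDDX6.2 replicate 1. The median against sgNS was -0.07 with sgDDX6.1 and -0.27 with sgDDX6.2. ORC6, a subunit of the origin recognition complex, was at 45.5 and 43.7 TPM with sgNS, 45.6 and 46.6 TPM with sgDDX6.1 and 33.8 and 34.8 TPM with sgDDX6.2, where only sgDDX6.2 stood apart. RRM2, the regulated subunit of ribonucleotide reductase, was at 231 and 223 TPM, 202 and 194 TPM and 161 and 159 TPM, and CDC6, which loads the replicative helicase, at 94.3 and 90.8 TPM, 70.5 and 70.5 TPM and 57.3 and 55.5 TPM. Both fell in steps from sgNS over sgDDX6.1 to sgDDX6.2. CHAF1A, a chaperone that places histones on new DNA, fell in the same order (85.99 and 84.4 TPM, 68.3 and 69.1 TPM and 53.2 and 55.8 TPM).

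E2F factors are the classical activators of S phase genes. Of 42 S phase genes with a RefSeq promoter 26 (61.9%) held an E2F site, searched as GCGGGAA or TTTGGCGC on both strands, beside 14% of all genes tested. Within the list 12 of 26 genes with the site were called lower (46.2%) and 8 of 16 without it (50%). Over all genes, those with the site were called lower in 22.5% and higher in 12.7% of 1269 cases, and those without it in 18.6% and 17.2%. Some members of the list with a lower p are not shown. CHAF1A is shown as a member with the site (chr19:4402390-4402689, plus strand), with the site in capitals.

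CHAF1A: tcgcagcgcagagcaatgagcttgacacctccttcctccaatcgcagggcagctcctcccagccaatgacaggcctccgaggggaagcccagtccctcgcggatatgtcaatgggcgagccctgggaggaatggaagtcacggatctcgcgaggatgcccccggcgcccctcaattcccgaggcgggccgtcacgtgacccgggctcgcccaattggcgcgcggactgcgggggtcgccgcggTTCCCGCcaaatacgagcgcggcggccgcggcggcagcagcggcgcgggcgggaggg

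CDK inhibitors and p53 targets moved the other way for some members, where 17.2% of all genes were called higher and 18.9% lower. By sign 16 of those tested were higher and 12 lower, with AEN the lowest at -0.30. With the GC trend removed 12 were called higher and 5 lower. Of 28 CDK inhibitors and p53 targets, 10 were called higher and 2 lower with sgDDX6.2, with a median of 0.05, and the count higher was 6 without sgDDX6.1 replicate 2 or without sgDDX6.2 replicate 2. CDKN1A, the CDK inhibitor p21, was at 25.7 and 25.4 TPM with sgNS, 19.6 and 19.2 TPM with sgDDX6.1 and 42.9 and 44.2 TPM with sgDDX6.2. It fell with the first guide and rose with the other, and the guides differed by 1.12 ± 0.06 (limma adjusted p = 1.8e-07). BTG2, an antiproliferative gene that binds the deadenylase complex, was at 46.9 and 47.6 TPM, 55.8 and 54.95 TPM and 87.6 and 93.04 TPM. TP53INP1 and TP53I3, targets of p53 in stress and redox responses, were at 5.23 and 4.53 TPM and 5.03 and 4.91 TPM with sgDDX6.1 and at 7.92 and 7.84 TPM and 7.09 and 7.85 TPM with sgDDX6.2, on either side of sgNS (6.84 and 6.13 TPM and 5.85 and 6.42 TPM).

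Most genes for the building blocks of nucleic acids were lower with sgDDX6.2, where 18.9% of all genes were called lower. Of 27 genes of polyamine and nucleotide synthesis 17 were called lower and 1 higher (median -0.17), and the count lower was 11 without sgDDX6.2 replicate 1 and 9 without sgDDX6.2 replicate 2. ODC1, the rate-limiting enzyme of polyamine synthesis, was at 266 and 265 TPM with sgNS, 262 and 261 TPM with sgDDX6.1 and 199 and 199 TPM with sgDDX6.2. PAICS, of purine synthesis, showed the same pattern (314 and 313 TPM, 308 and 298 TPM and 244 and 249 TPM), as did CAD, which starts pyrimidine synthesis (76.4 and 82.2 TPM, 78.8 and 77.3 TPM and 58.9 and 63.4 TPM). PFAS, another purine enzyme, was instead highest with sgDDX6.1 (18.6 and 20.8 TPM, 27.5 and 26.6 TPM and 18.3 and 19.2 TPM). In ODC1, PAICS and CAD the sgDDX6.2 libraries alone stood apart from the other 4.

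Among 34 AP-1 and immediate early genes, which respond to growth factors within minutes, 12 were called lower and 4 higher (median -0.09). The median depended on single libraries of the DDX6 guides, from -0.13 without sgDDX6.1 replicate 2 to -0.05 without sgDDX6.1 replicate 1. Only 33 were tested without either sgDDX6.1 library, so a member passed the filter only through those libraries, where it was high. Over all genes 18.9% were called lower and 17.2% higher. MYC, a transcription factor that drives cell growth, was at 359.8 and 369.5 TPM with sgNS, 264 and 245 TPM with sgDDX6.1 and 178 and 178 TPM with sgDDX6.2, a fall in steps (-0.51 ± 0.04 between the guides, limma adjusted p = 9.3e-06). JUN, a subunit of AP-1, was at 208 and 218 TPM, 303 and 303 TPM and 230.4 and 241 TPM, and EGR1 at 459.5 and 469 TPM, 493 and 456 TPM and 372 and 376 TPM. DUSP2, a phosphatase of MAP kinases, was at 14.96 and 18.5 TPM, 31.1 and 31.6 TPM and 20.6 and 20.7 TPM. JUN and DUSP2 were highest with sgDDX6.1, whereas EGR1 was lowest with sgDDX6.2.

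Most lysosomal genes were higher with sgDDX6.2. Lysosomes digest macromolecules with acid hydrolases, and their lumen is acidified by the proton pump V-ATPase. Of 54 tested genes 37 were called higher and 0 lower, with a median log2 difference of 0.22, where 17.2% of all genes tested were called higher. Without either sgDDX6.2 library 53 were tested, so a member passed the filter only through those libraries, where it was high. Against sgNS the median was 0.18 with sgDDX6.1 and 0.40 with sgDDX6.2. The protease gene CTSL was at 87.98 and 91.95 TPM with sgNS, 85.2 and 82.8 TPM with sgDDX6.1 and 141 and 143 TPM with sgDDX6.2, where only sgDDX6.2 stood above the others. CTSD, which codes for cathepsin D, was at 522 and 560.5 TPM, 766 and 781 TPM and 1051 and 1085 TPM, and NEU1, a sialidase, at 154 and 162 TPM, 217 and 219 TPM and 302 and 319 TPM. Both genes rose in steps without overlap, with guide differences of 0.46 ± 0.04 and 0.51 ± 0.04. The count was 27 to 33 without single libraries of the DDX6 guides and 39 with the GC trend removed.

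Many lysosomal genes carry the CLEAR element bound by TFEB. Searched as TCACGTGA, a motif chosen after the values were seen, it was in the promoters of 6 of 37 lysosomal genes with a RefSeq promoter (16.2%) and of 2.44% of all genes tested, and 5 of the 6 were called higher, as were 21 of the 31 lysosomal genes without it. Over all 221 genes with the element 15.8% were called higher, beside 16.6% of those without it. LAMP1, a lysosomal membrane protein, was at 578 and 582 TPM with sgNS, 776 and 765 TPM with sgDDX6.1 and 880.1 and 883 TPM with sgDDX6.2, and its promoter (chr13:113296989-113297288, plus strand) is shown with the elements in capitals.

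LAMP1: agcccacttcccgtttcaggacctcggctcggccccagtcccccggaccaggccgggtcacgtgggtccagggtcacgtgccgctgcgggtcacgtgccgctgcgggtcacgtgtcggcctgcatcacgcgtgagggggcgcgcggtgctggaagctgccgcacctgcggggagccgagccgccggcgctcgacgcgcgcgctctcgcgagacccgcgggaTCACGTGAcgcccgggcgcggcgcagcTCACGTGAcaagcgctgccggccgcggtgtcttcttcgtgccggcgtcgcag

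**Figure D3:**
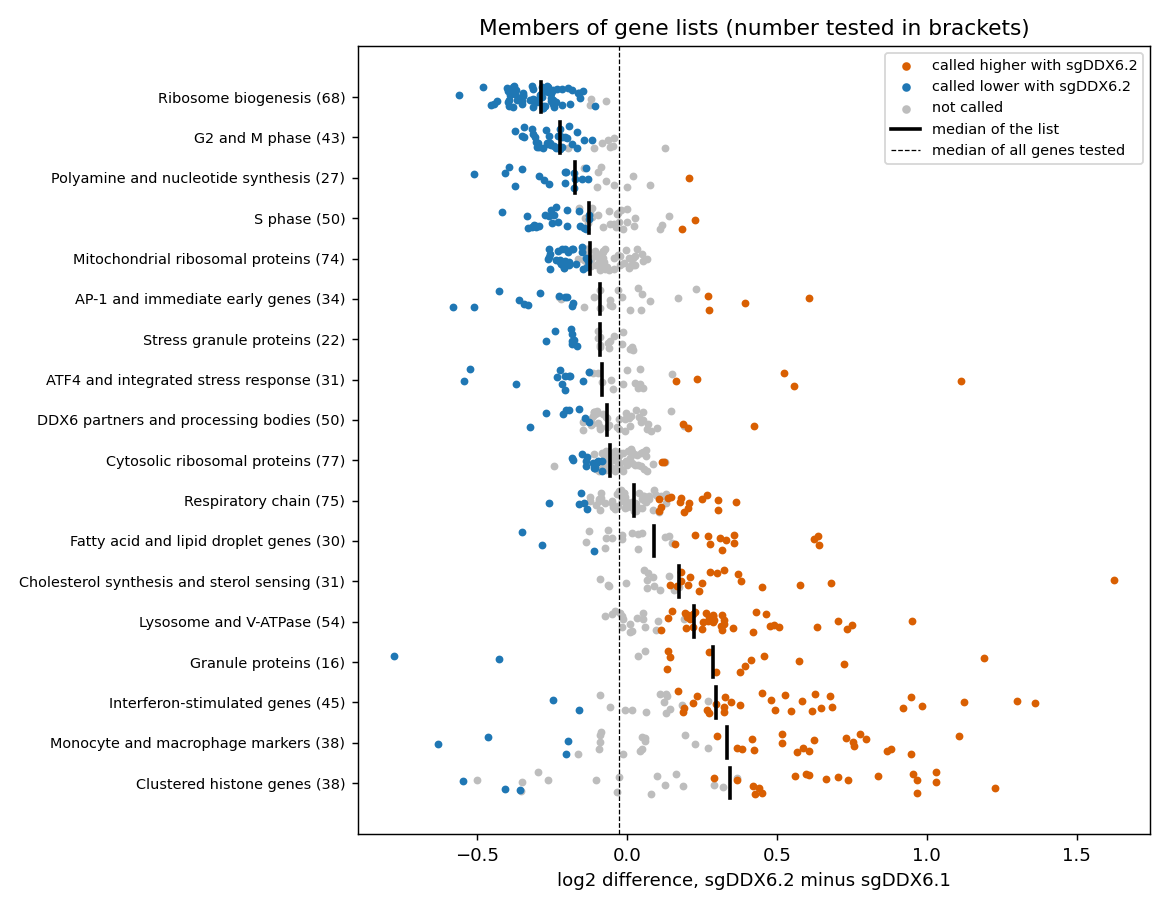
Log2 difference, sgDDX6.2 minus sgDDX6.1 (x axis), of the tested members of 18 gene lists (rows); each dot is a gene, orange if called higher, blue if called lower and grey if not called, thick bars are list medians and the dashed line is the median of all genes tested. Nearly all dots of ribosome biogenesis and of G2 and M phase lie left of 0, and most of the lysosomal, granule, interferon and macrophage genes lie right of it.

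Lipid genes were called higher more often than lower. Of 31 genes of cholesterol synthesis and sterol sensing 17 were called higher and 0 lower (median 0.17), and of 30 fatty acid and lipid droplet genes 12 were higher and 3 lower (median 0.09), beside 17.2% higher and 18.9% lower over all genes. For the fatty acid list the count lower was 1 without sgDDX6.1 replicate 1 or sgDDX6.2 replicate 1, and the median was 0.04 without sgDDX6.1 replicate 2. ABCA1, which exports cholesterol from macrophages, was at 7.01 and 6.34 TPM with sgNS, 1.17 and 1.22 TPM with sgDDX6.1 and 6.06 and 5.50 TPM with sgDDX6.2. The fall of ABCA1 against sgNS was thus called with sgDDX6.1 (-1.80) and not with sgDDX6.2 (-0.18), and the guides differed by 1.63 ± 0.09 (limma adjusted p = 6.7e-07). SREBF1, a transcription factor of lipid synthesis, was at 31.9 and 33.5 TPM, 14.2 and 14.2 TPM and 23.01 and 23.7 TPM. INSIG1, which holds back the sterol sensor, rose in steps (99.9 and 96.9 TPM, 140.0 and 130.2 TPM and 201 and 202 TPM), as did SQLE, squalene epoxidase (71.8 and 67.7 TPM, 157 and 151 TPM and 198 and 204 TPM). The desaturase FADS2 was at 187 and 205 TPM, 168 and 168 TPM and 252 and 274 TPM, and PLIN2, which coats lipid droplets, at 141 and 142 TPM, 124 and 127 TPM and 157 and 155 TPM. Both were lowest with sgDDX6.1 and highest with sgDDX6.2. CD36, a fatty acid and scavenger receptor, was at 4.01 and 3.33 TPM, 13.2 and 12.2 TPM and 19.8 and 20.5 TPM.

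Genes of the respiratory chain and of glycolysis were called in both directions, where 17.2% of all genes were called higher and 18.9% lower. Of 75 respiratory chain genes 15 were higher and 5 lower (median 0.02), a share called under the background, and the count higher was 8 without sgDDX6.1 replicate 1 or without sgDDX6.2 replicate 1. The count lower was 0 to 3 without any single library of the DDX6 guides, and with no variance trend the counts were 8 and 1. NDUFA13, a subunit of complex I, was at 397 and 397 TPM with sgNS, 380.3 and 409 TPM with sgDDX6.1 and 507 and 507 TPM with sgDDX6.2. Of 25 glycolysis genes 8 were higher and 6 lower (median 0.04), and 4 or 5 were higher without any single library of the DDX6 guides and 4 with quantile normalization. ALDOC, an aldolase, was at 26.2 and 26.3 TPM with sgDDX6.1 and 40.4 and 39.4 TPM with sgDDX6.2, whereas HK2, a hexokinase, was at 97.7 and 96.7 TPM and 77.7 and 80.1 TPM, PFKFB3, which makes an activator of glycolysis, at 17.8 and 18.3 TPM and 12.2 and 12.6 TPM, and SLC16A1, a lactate transporter, at 74.8 and 67.8 TPM and 50.2 and 50.9 TPM. The last 3 were lower with sgDDX6.2.

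Most of the macrophage and granule genes tested were higher with sgDDX6.2. Of 59 monocyte and macrophage markers 38 were tested, and 20 of these were called higher and 4 lower, with a median of 0.33. Over all genes 17.2% were called higher and 18.9% lower. The 17 members in the table below the filter gave no value, and a member that passed only where it was high had to differ. APOE, a lipid carrier made by macrophages, was at 48.9 and 50.7 TPM with sgNS, 29.7 and 32.95 TPM with sgDDX6.1 and 55.5 and 54.7 TPM with sgDDX6.2. TYROBP, the signalling adaptor of myeloid receptors, was at 37.6 and 44.7 TPM, 59.96 and 60.3 TPM and 109.9 and 111 TPM, and CD68, a lysosomal membrane protein used as a macrophage marker, at 222 and 227 TPM, 273 and 279.7 TPM and 380.3 and 412 TPM. TYROBP and CD68 rose in steps, while APOE was lowest with sgDDX6.1. IRF8, a transcription factor of monocytes and dendritic cells, went the other way (110.0 and 112 TPM, 239 and 237 TPM and 172 and 173 TPM), and so did CCR2, described above. The markers of other cell types CD8A, NKG7, CD79B and KRT18 were called higher with sgDDX6.2 as well, with the values given above. The 2 tested erythroid and megakaryocyte markers, GP1BA and HBA1, were instead lower and not called (-0.36 and -0.33). With quantile normalization 1 of these 2 was called lower.

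CSF1R and CD4, both on the list of markers of the line, were at 0.71 and 0.98 TPM and 0.49 and 0.48 TPM with sgNS, 1.79 and 2.16 TPM and 0.81 and 0.81 TPM with sgDDX6.1 and 4.50 and 4.44 TPM and 2.76 and 3.04 TPM with sgDDX6.2. Both were low, and CD4 passed the filter only through the sgDDX6.2 libraries, so that it had to differ. Of the 12 tested members of that list, CD4 included, 5 were higher and 0 lower (median 0.14), beside 17.2% higher over all genes. CD4 was no longer tested without either sgDDX6.2 library, and 4 of 11 were then higher without replicate 1 and 3 of 11 without replicate 2. SPI1, the master regulator of the myeloid lineage, was not called between the guides (341 and 342 TPM and 349 and 357 TPM, 0.05 ± 0.04), nor was HOXA9, a target of the MLL fusion (77.5 and 73.5 TPM and 72.2 and 67.1 TPM, -0.11 ± 0.05). In bulk RNA, a change in the share of cells of a kind and a change of RNA per cell cannot be told apart.

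Of 28 granule protein genes 16 were tested, with 12 higher and 2 lower (median 0.29), beside 17.2% higher and 18.9% lower over all genes. CST7, an inhibitor of granule proteases, was at 250.3 and 255 TPM with sgNS, 140.3 and 142 TPM with sgDDX6.1 and 324 and 323 TPM with sgDDX6.2, on either side of sgNS (1.19 ± 0.04, limma adjusted p = 1.0e-08). RNASE2 was at 639 and 649 TPM, 799.5 and 798 TPM and 1025 and 1073 TPM, RNASE3 at 231 and 238 TPM, 308 and 290.5 TPM and 415 and 406 TPM, and RNASE6 at 84.97 and 78.7 TPM, 104 and 107 TPM and 176 and 174 TPM. These secreted ribonucleases rose in steps, and RNASE2 and RNASE3 are close paralogs between which reads may be divided uncertainly. Of 25 chemokine receptors and integrins 11 were higher and 3 lower (median 0.13), beside the same shares over all genes. Without either sgDDX6.2 library 24 of these were tested, so a member passed the filter only through those libraries, where it was high. CD44, the hyaluronan receptor of that list, was at 114 and 110.3 TPM, 98.95 and 93.7 TPM and 148 and 147 TPM.

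Most interferon-stimulated genes were higher with sgDDX6.2 than with sgDDX6.1, while the median of the list was below sgNS with both guides. Interferons act through STAT and IRF factors, which switch on antiviral effector genes. Of 61 listed genes 45 were tested, and 30 were called higher and 2 lower, with a median log2 difference of 0.30, beside 17.2% higher and 18.9% lower over all genes. The 12 members in the table below the filter gave no value. Without either sgDDX6.2 library 43 members were tested, so some passed the filter only through those libraries, where they were high. The median against sgNS was -0.83 with sgDDX6.1 and -0.53 with sgDDX6.2. IFI6, an antiapoptotic interferon-induced protein, was at 97.6 and 101 TPM with sgNS, 24.6 and 26.6 TPM with sgDDX6.1 and 58.3 and 55.7 TPM with sgDDX6.2. OAS3, which makes the second messenger that activates the antiviral ribonuclease L, was at 11.6 and 11.8 TPM, 2.43 and 2.37 TPM and 5.52 and 5.36 TPM. In IFI6, OAS3 and MX1 the sgDDX6.2 libraries lay between the other groups without overlap, with guide differences of 1.13 ± 0.05, 0.92 ± 0.08 and 1.30 ± 0.08. IFITM2, a membrane protein that blocks viral entry, was instead at 149.6 and 159 TPM, 140.5 and 141 TPM and 201 and 206 TPM, highest with sgDDX6.2. IFITM1, the member with the largest difference, chosen after its values were seen, was at 18.5 and 16.9 TPM, 1.41 and 2.59 TPM and 6.45 and 6.65 TPM. The genes IFITM1 and IFITM2 overlap in the annotation and are similar in sequence, so their reads may be divided uncertainly. The count higher was 20 to 28 without single libraries of the DDX6 guides and 37 with the GC trend removed.

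Interferon-stimulated promoters are known for a shared response element, the binding site of STAT and IRF complexes. The element, searched as GAAANNGAA on both strands, was found in 23 of 35 genes of the list with a RefSeq promoter (65.7%) and in 8.96% of all genes tested. Of the 23 genes with it 15 were called higher (65.2%, median 0.27) and 1 lower, and of the 12 list members without it 9 were called higher (75%, median 0.33). Over all 810 genes with the element 18.4% were higher and 18.4% lower, beside 16.4% and 19.2% of the genes without it. Some list members with a lower p than OAS3 are not shown. The 3 list members with the element, IFI6 (chr1:27672143-27672442, minus strand), OAS3 (chr12:112938224-112938523, plus strand) and IFITM1 (chr11:313790-314089, plus strand), are examples, with each match in capitals.

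IFI6: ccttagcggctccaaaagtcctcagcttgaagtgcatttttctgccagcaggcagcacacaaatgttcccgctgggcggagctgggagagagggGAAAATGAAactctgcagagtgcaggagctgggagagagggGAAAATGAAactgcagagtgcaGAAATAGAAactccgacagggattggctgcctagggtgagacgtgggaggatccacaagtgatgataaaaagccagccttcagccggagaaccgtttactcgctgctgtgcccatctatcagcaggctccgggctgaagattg

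OAS3: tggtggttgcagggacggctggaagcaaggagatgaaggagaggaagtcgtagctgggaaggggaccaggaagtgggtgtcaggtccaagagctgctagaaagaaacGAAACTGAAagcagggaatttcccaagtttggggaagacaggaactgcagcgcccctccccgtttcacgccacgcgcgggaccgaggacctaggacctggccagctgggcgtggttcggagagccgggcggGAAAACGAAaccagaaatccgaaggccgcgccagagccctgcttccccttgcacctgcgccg

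IFITM1: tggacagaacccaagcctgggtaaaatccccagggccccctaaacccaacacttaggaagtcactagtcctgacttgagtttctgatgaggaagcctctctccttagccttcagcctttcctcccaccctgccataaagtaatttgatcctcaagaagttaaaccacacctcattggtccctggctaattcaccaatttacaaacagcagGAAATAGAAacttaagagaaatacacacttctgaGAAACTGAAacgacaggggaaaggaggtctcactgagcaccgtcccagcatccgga

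Genes of other immune lists were called in both directions, where 17.2% of all genes were called higher and 18.9% lower. Of 9 tested genes of antigen presentation 4 were higher and 2 lower. IFI30, a lysosomal thiol reductase, was at 121 and 131 TPM with sgNS, 256 and 266 TPM with sgDDX6.1 and 414 and 427 TPM with sgDDX6.2, and CD74, the invariant chain, at 143 and 147 TPM, 84.3 and 85.2 TPM and 108 and 113 TPM. Of 29 NF-kB and inflammatory genes 6 were higher and 2 lower (median 0.08), a share under the background. Only 28 were tested without either sgDDX6.2 library, so a member passed the filter only through those libraries, where it was high. NLRP3, an inflammasome sensor, was at 80.2 and 80.8 TPM, 92.3 and 91.3 TPM and 69.9 and 71.7 TPM. CCL5, a chemokine, was at 79.2 and 87.5 TPM, 51.6 and 52.2 TPM and 67.6 and 69.03 TPM.

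**Figure D4:**
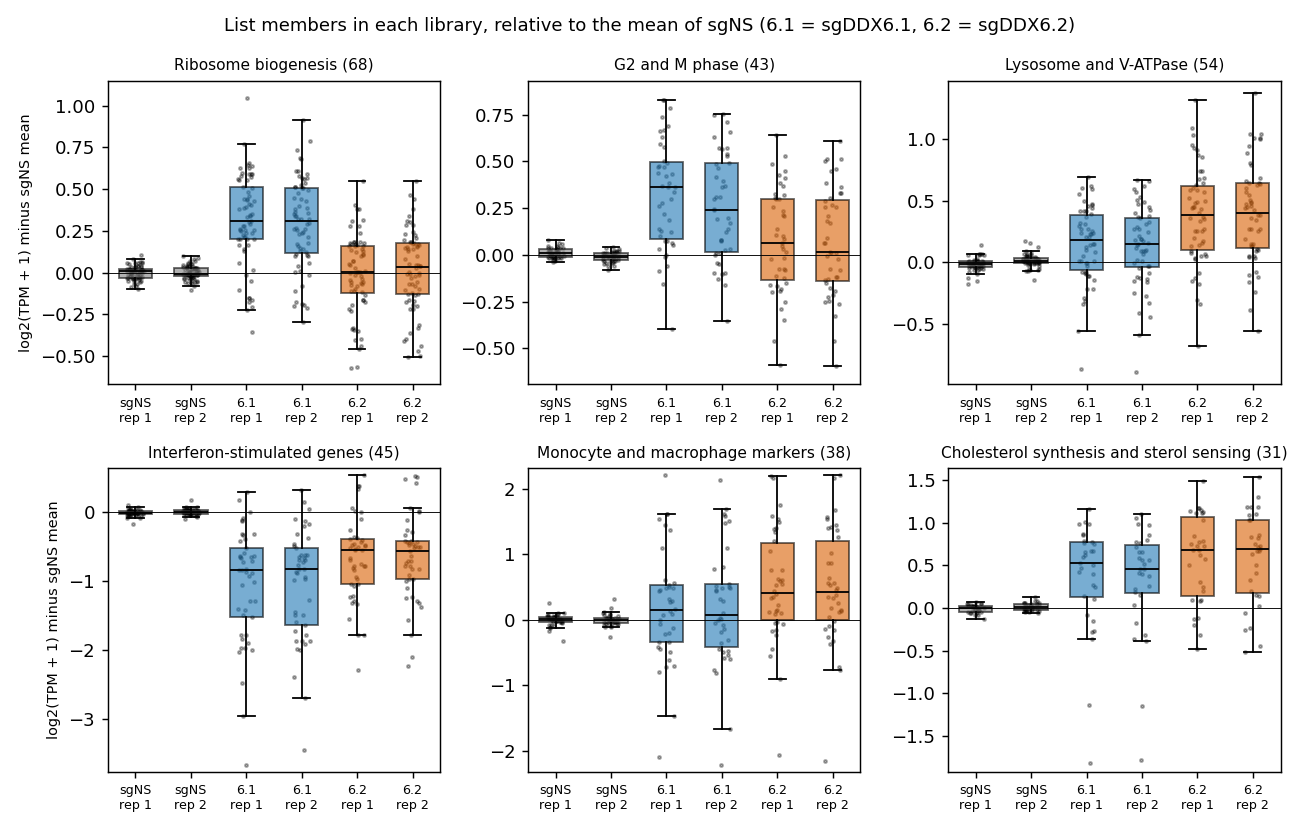
Log2(TPM + 1) of the tested members of 6 gene lists in each library, minus the gene's mean in sgNS (y axis); boxes span the quartiles with the median as a line, whiskers reach 1.5 times the box height and dots are genes. Both replicates of a guide sit together. The medians of ribosome biogenesis and mitotic genes are raised with sgDDX6.1 and near 0 with sgDDX6.2. The median of interferon genes is below 0 with both guides and less so with sgDDX6.2, and that of lysosomal genes is highest with sgDDX6.2. Single genes depart from these medians.

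Clustered histone genes were among those raised with sgDDX6.2. Their main transcripts lack a poly(A) tail, so libraries of poly(A)+ RNA hold only a polyadenylated portion, and several copies are near-identical. Of 38 tested genes 19 were called higher and 3 lower, beside 17.2% higher and 18.9% lower over all genes. Without either sgDDX6.1 library 36 were tested, and without either sgDDX6.2 library 37, so some members reached the filter in only 2 libraries. With no filter on low values 13 were called higher and 0 lower. A TPM filter of 5 left 19 genes, with 14 higher and 2 lower. The median log2 difference was 0.34, and members ranged from -0.55 for HIST2H2AC to 1.23 for HIST1H4J. The list's summed level was 725 and 751 TPM with sgDDX6.1 and 1261 and 1261 TPM with sgDDX6.2, beside 695 and 713 TPM with sgNS. Much of the rise in this sum came from HIST1H2BK alone. HIST1H2BK, a gene for histone H2B, was at 355 and 354 TPM with sgNS, 329 and 331 TPM with sgDDX6.1 and 681 and 670.2 TPM with sgDDX6.2. HIST2H2BE, another, was at 11.5 and 11.3 TPM, 11.5 and 12.5 TPM and 24.6 and 26.5 TPM. HIST1H1C, for a linker histone, was at 71.99 and 73.2 TPM, 85.7 and 87.7 TPM and 136 and 127 TPM. In these genes both sgDDX6.2 libraries stood above the other 4.

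Stress genes that were far below sgNS with both guides differed by much less between the guides. Over all genes 17.2% were called higher and 18.9% lower with sgDDX6.2. Of 31 genes of the ATF4 and integrated stress response, a programme for amino acid supply, 12 were lower and 5 higher with sgDDX6.2 (median -0.08), where the median against sgNS was -2.10 with sgDDX6.1 and -2.29 with sgDDX6.2. Only 30 were tested without either sgDDX6.2 library, so a member passed the filter only through those libraries, where it was high. The count lower was 7 without sgDDX6.2 replicate 1, and the count higher was 3 without sgDDX6.2 replicate 2. SLC7A5, a transporter of large neutral amino acids, was at 328 and 352 TPM with sgNS, 79.7 and 80.2 TPM with sgDDX6.1 and 54.5 and 56.03 TPM with sgDDX6.2. SLC7A1, a transporter of cationic amino acids, was at 479 and 486 TPM, 167 and 160.1 TPM and 126 and 127 TPM. NUPR1, a stress-induced nuclear protein, and VLDLR, a lipoprotein receptor, had fallen less with sgDDX6.2, NUPR1 at 17.5 and 18.6 TPM, 1.55 and 1.00 TPM and 4.01 and 3.77 TPM and VLDLR at 85.6 and 84.8 TPM, 40.04 and 37.3 TPM and 56.4 and 58.3 TPM. Of 20 tRNA synthetases 8 were lower and 1 higher (median -0.10), with 5 lower without sgDDX6.1 replicate 1 or sgDDX6.2 replicate 2 and 4 without sgDDX6.2 replicate 1. With quantile normalization or no variance trend 5 were lower.

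Chaperone genes were called about as often as genes in general. Of 35 heat shock and ER chaperone genes 5 were higher and 9 lower (median -0.03), together close to the 36.1% called over all genes. The count higher was 8 with the GC trend removed, and 3 with quantile normalization, with no variance trend, without sgDDX6.1 replicate 2 or without either sgDDX6.2 library. The small heat shock protein HSPB1 was at 331 and 349 TPM with sgNS, 724 and 739.8 TPM with sgDDX6.1 and 1098 and 1146 TPM with sgDDX6.2, and CALR, a calcium-binding chaperone of the endoplasmic reticulum, at 1512 and 1544 TPM, 3128 and 3127 TPM and 3671 and 3742 TPM. HSPD1 and HSPE1, which form the mitochondrial chaperonin, were at 761 and 714 TPM and 256 and 250.1 TPM, 1103 and 1063 TPM and 502 and 491 TPM, and 881 and 882 TPM and 404 and 399 TPM in the same order. The first pair was highest with sgDDX6.2 and the chaperonin pair was highest with sgDDX6.1.

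The count of DDX6 partners called between the guides depended on the scaling. Of 50 genes for processing body proteins and DDX6 partners 3 were higher and 8 lower (median -0.07), a smaller share called than the 36.1% over all genes. With the GC trend removed 8 were higher and 10 lower, again a smaller share than over all genes, where 4812 of 10962 were then called. The count lower was 5 with median centring, 4 with quantile normalization and 3 with no variance trend. The count lower was also 4 without sgDDX6.1 replicate 1 or sgDDX6.2 replicate 1, and 3 without sgDDX6.2 replicate 2. TOB2, which recruits deadenylases, was at 29.4 and 29.2 TPM with sgNS, 32.7 and 31.6 TPM with sgDDX6.1 and 25.4 and 25.5 TPM with sgDDX6.2. AGO2, the microRNA-guided silencing protein, was at 47.5 and 48.9 TPM, 46.9 and 43.3 TPM and 36.5 and 37.9 TPM, and CPEB1, which binds cytoplasmic polyadenylation elements, at 7.65 and 8.15 TPM, 4.74 and 5.23 TPM and 7.02 and 7.02 TPM. TOB2 and AGO2 were lower and CPEB1 higher with sgDDX6.2, and for AGO2 the sgNS and sgDDX6.1 libraries lay close together. Over all genes 18.9% were called lower. Of 22 stress granule genes 8 were lower and 0 higher (median -0.09), with 4 lower without sgDDX6.1 replicate 1 and 3 without sgDDX6.2 replicate 1.

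Leukemia, survival and drug response genes were called in both directions, and the cell death and antioxidant lists were called at shares close to the 36.1% over all genes. Among 31 MLL-fusion and stem cell genes 6 were higher and 10 lower (median -0.01), and 5 were lower without sgDDX6.1 replicate 1 and 6 without sgDDX6.2 replicate 1. With the GC trend removed 10 were higher. FLT3, a growth factor receptor of leukemic blasts, was at 1542 and 1537 TPM with sgNS, 1399 and 1342 TPM with sgDDX6.1 and 1666 and 1655 TPM with sgDDX6.2. CCNA1, a cyclin of germ cells and myeloid leukemia, was at 12.3 and 11.5 TPM, 20.2 and 19.3 TPM and 30.99 and 32.3 TPM, and LGALS1, a galectin, at 726 and 759.9 TPM, 848 and 931 TPM and 1377 and 1356 TPM. Of 40 cell death regulators 9 were higher and 7 lower, with 3 to 5 higher without any single library of the DDX6 guides, and 2 to 4 lower without sgDDX6.1 replicate 1 or either sgDDX6.2 library. With the GC trend removed 15 of them were higher and 9 lower. Without either sgDDX6.2 library 38 of them were tested, so some passed the filter only through those libraries, where they were high. Likewise 22 of the drug handling genes given next were tested without either sgDDX6.2 library, so a member passed only where it was high. Of 23 drug handling genes 6 were higher and 9 lower, with 5 lower without sgDDX6.1 replicate 1 and 3 without sgDDX6.2 replicate 1. Of 30 antioxidant and iron genes 7 were higher and 4 lower, with 3 higher without sgDDX6.2 replicate 1 and 2 without sgDDX6.2 replicate 2. The count of antioxidant genes lower was 2 without sgDDX6.1 replicate 1 or without sgDDX6.2 replicate 1.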

How the data were processed

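Gene expression was measured by sequencing poly(A)+ RNA of 6 Mono-mac-6 libraries, grouped by their labels into sgNS, sgDDX6.1 and sgDDX6.2. The authors deposited TPM per gene, made with RSEM 1.2.31 on GRCh38 per the submitters' processing notes. The aligner and annotation stand as not given in the sources used here. Since these values are shares of a library, abundant genes that rise lower all others, and depth is unknown.

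Genes with at least 1 TPM in 2 or more of the 4 sgDDX6 libraries were kept. Genes at that level only in the libraries of a single guide passed the filter where they were high, and several lists hold such members. Log2(TPM + 1), which understates changes of low genes, was fitted with limma 3.58.1 in R 4.3.3 with 3 group means over all 6 libraries (3 residual degrees of freedom, variance trend), with two-sided tests and Benjamini-Hochberg adjustment at 0.05. The procedure was tested on simulated data. Coordinates and GC content came from GENCODE 29 (GRCh38), which gave GC content for 99.54% of tested genes, and promoters from RefSeq (GRCh38.p14).

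The members, gene lists and tests were chosen with earlier results of these data known. Named were DDX6, the 12 genes with the largest difference in each direction (adjusted p under 0.05, mean TPM of at least 5, no overlap between the guides), up to 6 genes on with one guide and off with the other, and up to 4 members of each of 34 lists with the lowest adjusted p. Of these lists 30 had at least 5 tested members. LAMP1, SPI1, HOXA9 and IFITM1 were chosen after their values were seen, as was the CLEAR motif. Some genes the rule selects do not appear in the text. Alternatives covered pseudocounts, filters, normalization, limma settings, GC content, the replicate number and leaving out each library.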

Additional observations from a re-analysis of the deposited data

Results flagged for a closer look

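In 16 of the 148 genes that the naming rule selects, the guides moved the gene in opposite directions against sgNS, both called by limma. These genes were also called in the direct contrast between the guides. The rule selects genes by that same contrast, so it is no separate test of them. The share of all genes tested that move in opposite directions was not counted. Both effects against sgNS share the sgNS libraries. The log2 difference, sgDDX6.2 minus sgDDX6.1, was positive in 13 of the 16 genes, which were thus below sgNS with sgDDX6.1 and above it with sgDDX6.2. It was 1.79 for SERPINI1, 1.19 for CST7, 1.12 for CDKN1A, 1.03 for HIST1H2BK, 0.80 for APOE, 0.64 for FADS2, 0.61 for CD44, 0.60 for TP53INP1, 0.53 for IFITM2, 0.50 for TP53I3, 0.47 for PTPRC, 0.31 for PLIN2 and 0.28 for FLT3. It was negative in 3, at -0.99 for FOXD1, -0.38 for BRIX1 and -0.37 for NLRP3.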

How the results depend on the processing

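The number of genes called between the guides was 2247 to 4114 when single libraries were left out, with 1130 to 1960 higher and 996 to 2154 lower, and it stayed within 1.5 times the reported 3957 under the other alternatives. At 2-fold, 40 genes were called with a TPM filter of 5, 163 with a pseudocount of 0.1 and 11 with a pseudocount of 5. Higher genes made up 42.0% to 57.8% of calls over all alternatives. The difference of DDX6 was 0.0461 with the GC trend removed, with or without the replicate block, 0.00519 with median centring, 0.0250 with quantile normalization, and -0.0401 to 0.0249 when libraries were left out. With the replicate block 4822 genes were called, 2182 higher and 2640 lower. Samples with the same replicate number share only a number, and their deviations from the group means correlated at 0.04 between the DDX6 guides. List medians that changed sign were near 0. Glycolysis was at -0.00618 with the GC trend removed, with and without the block, -0.0200 with a TPM filter of 5 and -0.0249 with quantile normalization. The chaperones were at 0.00601 and the MLL-fusion program at 0.0172 with the GC trend removed, with and without the block. Median centring gave 0.00222 for the MLL-fusion program and 0.00114 for antioxidant and iron genes, and a TPM filter of 5 gave -0.0257 for cell death. Without single libraries the medians ranged from -0.0205 to 0.0702 for the respiratory chain, -0.0625 to 0.0327 for the MLL-fusion program, -0.0221 to 0.0396 for cell death and -0.0234 to 0.0101 for antioxidant and iron genes. The cause was not tested. Of 2919 alternative values of the 147 named genes other than DDX6, 2898 kept direction and side of the threshold, 14 lost the call, 7 gained it and 0 changed sign. TPM carry no depth, so what depth limits could not be given.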
